A study of Homo sapiens with 12 samples.

Results

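MIR31 is the gene of the microRNA miR-31, 1 of the 1881 rows deposited as miRNA genes for these libraries. It was chosen by measured values, namely its difference between a dabrafenib-resistant melanoma line and the line it came from, so that difference is given below as a description with no test. Its responses to the drug, and the difference between these responses, were tested. The row was found by its gene name in the GENCODE v44 annotation, which matched 1 row (ENSG00000199177.1).
Small RNA was sequenced from A375, a human melanoma cell line that the BRAF inhibitor dabrafenib stops from growing, and from A375-BIR, its resistant derivative. A375-BIR was selected from A375 by continued culture in rising dabrafenib, and whether it is 1 clone is not stated. The 4 groups were A375 and A375-BIR, each given 0.1% DMSO as the vehicle or 200 nM dabrafenib for 48 h. Each group had 3 libraries, 12 in all, which the labels call biological replicates.
MicroRNAs are cut from a hairpin precursor in steps by the enzymes Drosha and Dicer, and the short mature strand guides Argonaute proteins to mRNAs that pair with its seed. miR-31 is known for its place on the short arm of chromosome 9 beside the cell cycle inhibitor gene CDKN2A, in a stretch that is often deleted in melanoma, so that the microRNA can be lost along with the tumour suppressor. In other cancers it is known both as a suppressor of metastasis, in breast cancer, and as a raised microRNA, in colorectal cancer. Dabrafenib blocks mutant BRAF and thereby the MEK and ERK kinases that drive growth in such melanomas.

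In hg38 with GENCODE v44, MIR31 lies on the minus strand at chr9:21512115-21512185 and is 71 bases long. It sits within the long non-coding RNA gene MIR31HG, on the same strand. Of the 27 annotated MIR31HG transcripts, 21 span MIR31, which is intronic in all 21 of them. The nearest end of CDKN2A is 455.6 kb away. The mature strand and the hairpin that carries it are shown, from RefSeq (GRCh38.p14), because the counts are of the whole precursor and the seed sets which mRNAs pair with it. The capitals mark the seed, bases 2 to 8, in the mature strand and the mature strand itself in the hairpin.
hsa-miR-31-5p: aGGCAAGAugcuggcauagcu
MIR31 hairpin: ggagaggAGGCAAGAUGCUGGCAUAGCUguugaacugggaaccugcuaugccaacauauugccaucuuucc
The mature strand has 21 bases and takes bases 8 to 28 of the hairpin. Of 2370 mature miRNA names in the RefSeq table, 1 carries this seed, namely miR-31-5p itself. The hairpin shares at most 11 bases in a row with any of 1561 other hairpins. MIR31 had whole values in 11 of the 12 libraries, although RSEM splits reads that fit several precursors between them. The counts do not tell the arms of the hairpin apart.

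The deposited values are expected counts, and they summed to between 77264 and 121802 per library for A375 in DMSO and between 36955 and 51532 in dabrafenib. For A375-BIR the totals were between 106427 and 122792 in DMSO and between 35070 and 59899 in dabrafenib. Libraries of drug-treated cells were thus shallower in both lines, and the part of depth in the results was not tested.
MIR31 was counted in all 12 libraries. In A375 in DMSO, its expected counts in replicates 1, 2 and 3 were 26, 48 and 36. In A375 in dabrafenib they were 10, 7 and 5. These are few counts, and a share of a library made of them is loosely known. In A375-BIR in DMSO, the counts were 1131, 1328 and 1450.75, and in A375-BIR in dabrafenib they were 132, 317 and 184. Every A375-BIR library, drug-treated or not, held more MIR31 counts than any A375 library.
As a share of all counts, MIR31 took 0.0337%, 0.0394% and 0.0414% of the A375 libraries in DMSO. It took 0.021%, 0.0136% and 0.0135% in A375 in dabrafenib. The exact (Clopper-Pearson) 95% intervals of these 6 shares overlap between treatments, since the lowest bound in DMSO was 0.022% and the highest in dabrafenib 0.0387%. In A375-BIR in DMSO the shares were 1.06%, 1.1% and 1.18%, against 0.376%, 0.529% and 0.387% in dabrafenib. There the intervals did not overlap, the lowest bound in DMSO being 1% and the highest in dabrafenib 0.591%. Intervals cover counting error within a library, not the spread between libraries. They may be too narrow even for counting error, because reads without molecular identifiers are not independent molecules.
Counts were then scaled with TMM to CPM, counts on a library size common to all libraries. TMM sets library sizes so that most precursors do not change. In this unit MIR31 stood at 311, 364 and 379 CPM in the A375 libraries in DMSO. It stood at 261, 197 and 166 CPM in the A375 libraries in dabrafenib. The values of the A375 treatments lay close together, without overlap. In the A375-BIR libraries MIR31 stood at 10246, 10415 and 10034 CPM in DMSO. In A375-BIR in dabrafenib the values were 3605, 4768 and 3722 CPM, all under each DMSO value of the line. A count of 3, the limit that a library without a count would allow, was worth between 20.7 and 99.7 CPM, below each MIR31 value.
The order of the group means ran from A375-BIR in DMSO (10231 ± 191 CPM; SD, n = 3) through A375-BIR in dabrafenib (4032 ± 640.4) and A375 in DMSO (351 ± 35.5) to A375 in dabrafenib (208 ± 48.2). The libraries of neighbouring groups in this order did not overlap. The widest gap was in the middle: the lowest A375-BIR library stood 9.52-fold above the highest A375 library. The narrowest was at the bottom, where the lowest A375 library in DMSO stood 1.19-fold above the highest in dabrafenib, and these neighbours did not pass the test given below. A375-BIR in drug thus still held 11.5-fold the mean of untreated A375.
In the order of expected counts, with no correction for length, MIR31 was between the 18th and the 20th row in the A375-BIR libraries in DMSO and between the 31st and the 36th in dabrafenib. In A375 it was between the 93rd and the 102nd in DMSO and between the 114th and the 141st in dabrafenib.

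**Figure D1:**
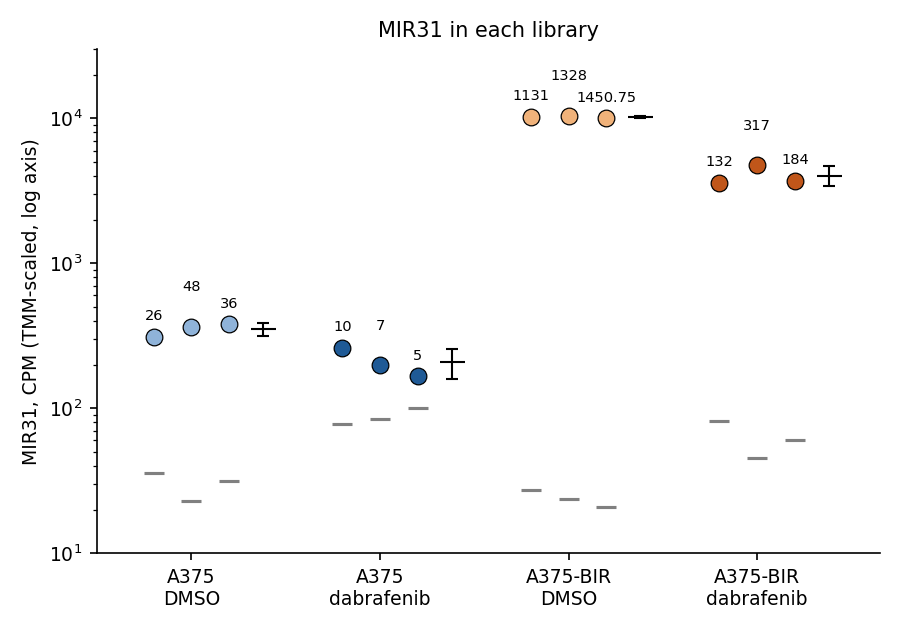
MIR31 in CPM (TMM-scaled, log axis) in each of the 12 libraries, with the expected count printed above each point, the group mean and SD in black (n = 3), and the level that 3 counts would give as a grey dash. A375-BIR stood between 3605 and 10415 CPM and A375 between 166 and 379 CPM, and in each line the dabrafenib libraries lay under the DMSO libraries.

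The comparison of the lines sets A375-BIR against the line it came from. The libraries replicate each line but not the selection of a resistant line. Resistance and other differences of this derivative therefore cannot be told apart. MIR31 was 28.9-fold higher in A375-BIR than in A375 in DMSO, a log2 fold change of 4.85 (SE 0.20, 3 libraries a group). In dabrafenib it was 19.0-fold higher, a log2 fold change of 4.25 (SE 0.23). Because MIR31 was chosen on this difference, nothing is read from its size or its place. In bulk RNA, fewer cells that carry a microRNA and less of it in each cell cannot be told apart.
Of 175 precursors with enough counts to be tested, MIR31 had the highest log2 fold change in DMSO. MIR1269A came next, with 4.44 on 1 to 3 counts in each A375 library and 55 to 57.5 in each of A375-BIR. In dabrafenib MIR31 came in place 3, below MIR3929 and MIR622, which had no count in drug-treated A375. Taking 3 counts over the 3 A375 libraries as the limit, these stood at least 12-fold and 8.85-fold higher in the resistant line, so their places above MIR31 rest on the prior count of the fit. MIR1269A was again directly below, with 3.88. By edgeR's quasi-likelihood test (FDR threshold 0.05), 30.3% of the 175 precursors were called higher and 16.0% lower in A375-BIR in DMSO. In dabrafenib 22.3% were called higher and 24% lower.

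**Figure D2:**
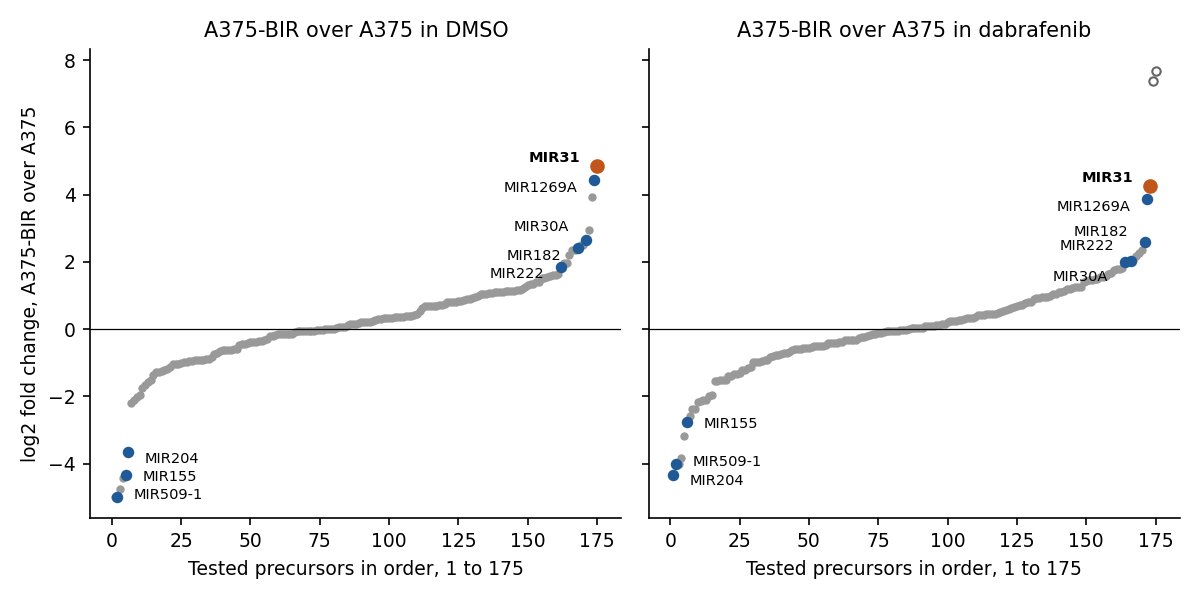
Log2 fold changes of the 175 tested precursors, A375-BIR over A375, in order of size in DMSO (left) and in dabrafenib (right), with MIR31 in orange and other named miRNAs in blue. MIR31 stood at 4.85 and 4.25. The open symbols at the right are MIR3929 and MIR622, which had 0 counts in A375 in dabrafenib, so that their height depends on the prior count of the fit.

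The comparison of treatments asks how each line responds to the inhibitor. In A375-BIR, MIR31 fell in dabrafenib to 39.5% of its level in DMSO, a 2.53-fold fall. The log2 fold change was -1.34 (SE 0.16, 95% interval -1.69 to -0.99), and it passed edgeR's quasi-likelihood test (FDR = 3.38e-05). All 3 treated libraries lay below all 3 control libraries, the nearest pair being 2.1-fold apart. An exact two-sided permutation test of 3 against 3 libraries gave p = 0.1, the smallest its 20 arrangements allow. Of the 175 tested precursors, 7.43% were called lower and 13.1% higher in this comparison, and MIR31 had the log2 fold change in place 2 from the lowest. The lower calls depend on the setting: of 13, MIR31 included, MIR31 alone was left with reference miRNAs and with only the libraries compared. The call of MIR31 held under each of 21 alternatives, with log2 fold changes between -1.58 and -1.26. The 3 A375-BIR libraries in DMSO also enter the line difference on which MIR31 was chosen.
In A375 the log2 fold change was -0.74 (SE 0.32, 95% interval -1.36 to -0.12), or 60.0% of the DMSO level on 22 counts over the 3 treated libraries. It did not pass edgeR's quasi-likelihood test (FDR = 0.0736). The test does not let p fall under the one that counting error alone gives, and this limit set the p here. All 3 treated libraries lay below all 3 control libraries, and the exact permutation test again gave p = 0.1, the smallest it can give. In this comparison 6.86% of the tested precursors were called lower and 18.3% higher, and MIR31 was in place 16 from the lowest.
The value in A375 moved with the scaling. TMM gave drug-treated A375 libraries factors of 0.693 to 0.822, and the other 9 libraries 1.04 to 1.19. With total counts in place of TMM the log2 fold change was -1.24, and it passed (FDR = 0.0025). With DESeq2's size factors it was -0.94 and passed (FDR = 0.0138). It did not pass with reference miRNAs as the scale (-0.83, FDR = 0.198) or with DESeq2's Wald test (-0.94, FDR = 0.0645). Over 21 alternatives 6 passed, and the FDR lay between 0.0025 and 0.23. The median moved as well: total counts brought the median log2 fold change of the 175 from 0.14 to -0.36. The distance of MIR31 from that median was -0.88 with TMM, with DESeq2's size factors and with total counts. In A375-BIR the distance was -1.30 with TMM and -1.29 with total counts. With other filters, which keep more precursors, the distance in A375 was -1.13 (no filter) and -1.03 (filter on CPM). The SE in A375 was 0.25 with DESeq2's size factors and 0.38 with its Wald test. Why the call changed between settings was not tested.

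**Figure D3:**
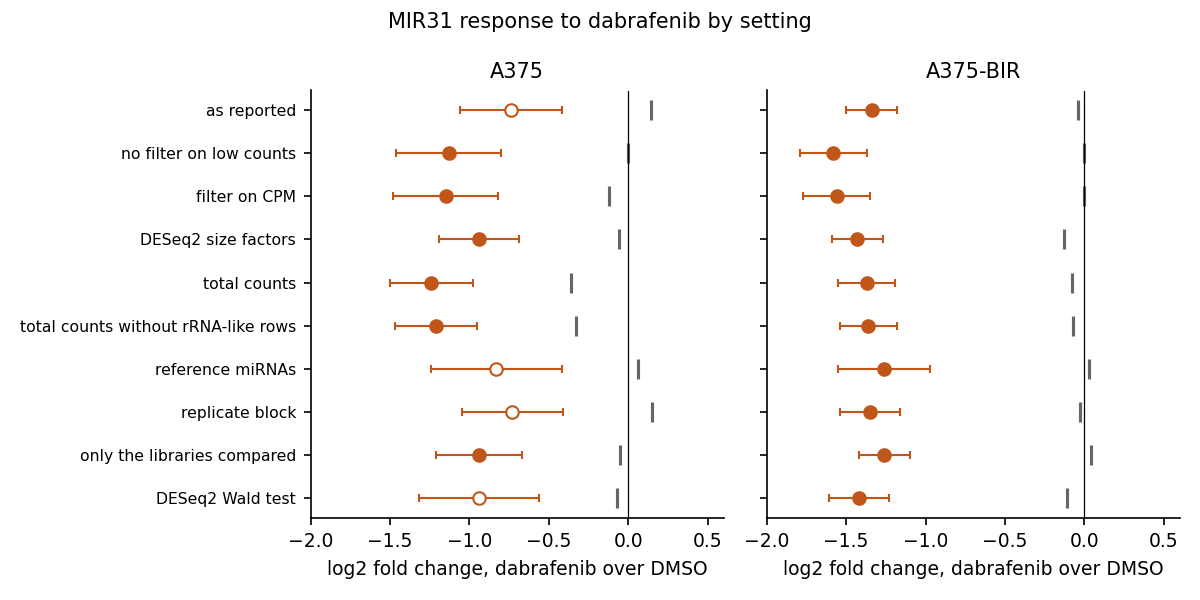
Log2 fold change of MIR31, dabrafenib over DMSO, in A375 (left) and A375-BIR (right) as reported and under 9 other settings, with bars for 1 SE. Filled points passed an FDR under 0.05, and the grey tick is the median of all precursors tested in that setting. In A375-BIR all settings passed, while in A375 the value lay between -1.24 and -0.73 and 6 of the 9 other settings passed.

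The fall was not shown to differ between the lines. The difference in response, A375-BIR minus A375, was -0.60 on the log2 scale (SE 0.39, 95% interval -1.36 to 0.15). Tested directly in edgeR, it did not pass (quasi-likelihood test, FDR = 0.422). The interval reaches from a 2.56-fold deeper fall in A375-BIR to a 1.11-fold shallower one, so that the data do not settle whether the responses are alike. With total counts the difference was -0.13 (FDR = 0.916), and it passed under 0 of 20 alternatives (FDR between 0.315 and 1). Of the 175 precursors, 2.86% were called lower and 0.571% higher in A375-BIR in this comparison. The 1 called higher was MIR146A, and the 5 called lower were MIR3648-1, MIR3648-2, MIR663A, MIRLET7B and MIRLET7C, all named here because they were called. With 1 library left out, MIR146A kept its call in 5 of 12 fits at most, since the other 7 had 0 higher calls.

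**Figure D4:**
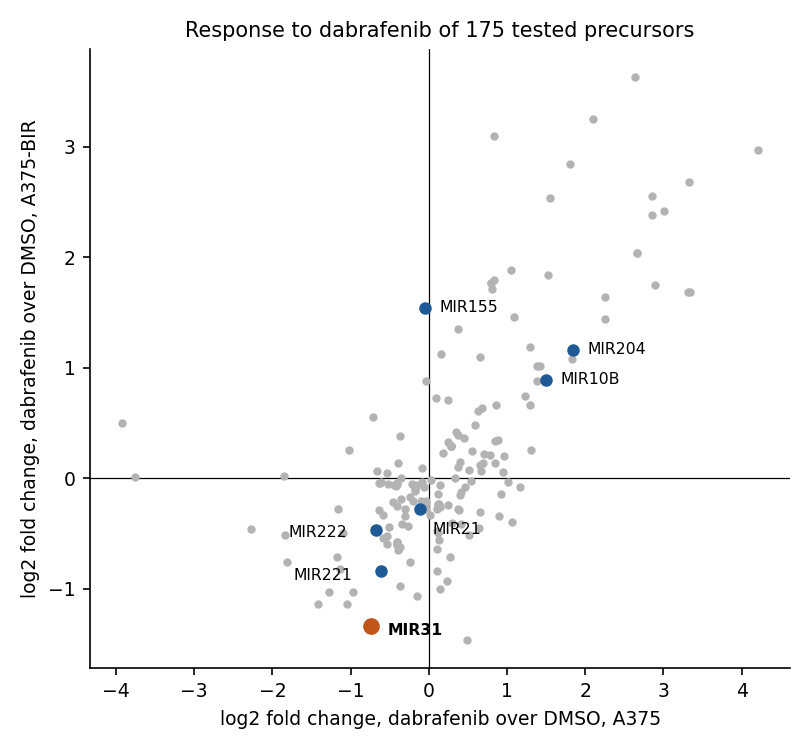
Log2 fold change in dabrafenib over DMSO in A375 (horizontal) and in A375-BIR (vertical) for each of the 175 tested precursors, as points. MIR31 (orange) stood at -0.74 and -1.34, in the lower left with MIR221 and MIR222, while MIR155, MIR204 and MIR10B (blue) stood higher.

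Beside MIR31, other measures moved with the drug. The rows MIR663A, MIR663B, MIR3648-1, MIR3648-2, MIR3687-1 and MIR3687-2, whose sequences resemble ribosomal RNA, took between 0.156% and 0.206% of the A375 libraries in DMSO and between 1.77% and 2.13% in dabrafenib. In A375-BIR they took between 0.186% and 0.247% in DMSO and between 0.918% and 0.98% in dabrafenib. With these rows left out of the total counts, the response of MIR31 was -1.21 in A375 and -1.36 in A375-BIR, against -1.24 and -1.37 with them.

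Likeness to MIR31 was measured as Pearson's r of log2 CPM over the 12 libraries, among the 174 other tested precursors. The libraries are those that chose MIR31, and the lines set most of the spread, so r is a description. The median r was 0.04, with 14 precursors over 0.9 and 9 under -0.9. MIR222, which targets the cell cycle inhibitor p27 and lies on chromosome X, was most alike (r = 0.98). MIR182 on chromosome 7, of a cluster active in sensory cells and in melanoma, had the same rounded r of 0.98. MIR30A on chromosome 6 followed with 0.96, MIR1269A on chromosome 4 with 0.95 and MIR769 on chromosome 19 with 0.93.
Since the 5 were picked for likeness to MIR31, their line differences are given here without a test. MIR222 and MIR182 also belong to lists given below, and the counts of those lists include them. The log2 fold change between lines in DMSO and in dabrafenib was 1.84 and 2.04 for MIR222. It was 2.42 and 2.58 for MIR182. For MIR30A it was 2.66 and 2.00. These 3 are abundant, with means between 9276 and 22310 CPM in A375-BIR in DMSO. For MIR769 the values were 1.09 and 0.93. In dabrafenib over DMSO, MIR222 was called lower in both lines, as given below. MIR182 had -0.41 in A375 and -0.25 in A375-BIR, and MIR769 had -0.26 and -0.43. MIR30A had 0.38 in A375 and -0.28 in A375-BIR, and MIR1269A had 0.54 and -0.02. These 4 were not called, and the shares called over all 175 are given above.
The least alike were MIR509-1, MIR509-2 and MIR509-3 on chromosome X, with r = -0.996, -0.996 and -0.991. MIR509-1 and MIR509-2 had identical counts, and the 3 copies share reads, so that they are not separate measurements. MIR509-1 had between 30.3 and 52.2 counts in each A375 library in DMSO and between 1.33 and 2 in each A375-BIR library in DMSO. Its log2 fold change for A375-BIR over A375 was -4.98 in DMSO and -4 in dabrafenib.

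**Figure D5:**
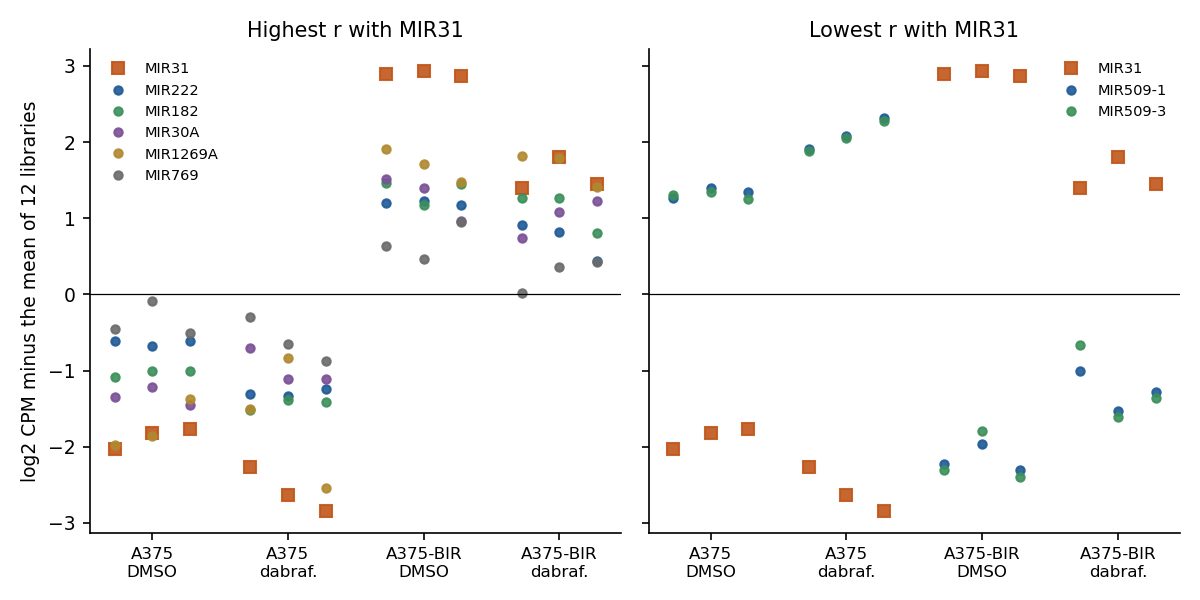
Log2 CPM minus the mean of the 12 libraries for MIR31 (orange squares) and the 5 precursors with the highest r (left), or MIR509-1 and MIR509-3 with the lowest (right), with replicates 1 to 3 of each group from left to right. MIR31 and the 5 lie above 0 in A375-BIR and below 0 in A375, and the MIR509 copies lie the other way.

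The neighbours of MIR31 on the short arm of chromosome 9 had few counts. Of 18 other precursors annotated there, 6 were at 0 in every library, and none had enough counts to be tested. MIR873 had the most, with 11 to 20 counts in each A375 library in DMSO and 0 to 2 in dabrafenib. In A375-BIR it had 0 to 4.5 counts in DMSO and 0 in each library in dabrafenib. MIR873 was thus low where MIR31 was high in DMSO, and low as well in drug-treated A375. No other of the 18 exceeded 5 counts in any library, and MIR491 reached 5 in 1 A375-BIR library in DMSO. A 0 in these files need not mean silence, for precursors here or markers below, since MIR423 and MIR103A1, reference miRNAs of many tissues, were at 0 in all 12 libraries. So few counts give no measure of transcription around MIR31, and the host transcript MIR31HG is not among the rows.

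The second group held 6 miRNAs known as linked to ERK, AP-1 or CREB, the transcription side of the pathway that dabrafenib blocks. MIR132 and MIR212, a CREB-induced pair, had too few counts, at most 16 and 1 in any library, which left 4 to test. In A375-BIR 2 of the 4 fell in dabrafenib (MIR221 and MIR222) and 1 rose (MIR155), where 7.43% and 13.1% of all 175 were called. In A375 MIR221 and MIR222 were again the members called lower, with 6.86% of all 175 called lower and 18.3% higher. That share moves with the scaling, since with total counts 44 of the 175 were lower and 18 higher in A375. The median log2 fold change of the 4 was -0.37 in A375-BIR and -0.36 in A375, against -0.04 and 0.14 over all 175. MIR221 and MIR222 share a cluster, and MIR222 was also picked above as most like MIR31. The group itself was chosen with earlier results of these data known. Counts and medians over it are therefore a description.
MIR221, which shares its cluster and its target p27 with MIR222, had a log2 fold change of -0.84 in A375-BIR (edgeR's quasi-likelihood test, FDR = 0.00661) and -0.61 in A375 (FDR = 0.0283). MIR222 had -0.47 in A375-BIR (FDR = 0.0314) and -0.67 in A375 (FDR = 0.00378) by the same test. The fall of MIR222 in A375-BIR is a narrow call: with the replicate number as a block it was -0.47 and did not pass. Over 21 alternatives for each, the call of MIR222 in A375-BIR was lost in 7 and its call in A375 in 1, and that of MIR221 in 3 and 5. Both falls were smaller on this scale than that of MIR31 in A375-BIR.
MIR155, a microRNA of immune activation that AP-1 and NF-kB induce, had 5 to 16 counts per library in A375-BIR given DMSO and 1 to 23 in drug-treated A375-BIR. The log2 fold change was 1.54 (edgeR's quasi-likelihood test, FDR = 0.0395), and 10 of 21 alternatives, 8 of them with 1 library left out, ended the call, with values between 1.14 and 1.65. The difference in its response between the lines was 1.59 (FDR = 0.19), and it passed under 4 alternatives, among them DESeq2's Wald test (1.74, FDR = 0.0481). MIR21, an ERK and AP-1 target, stood at 15766 ± 2824 CPM in A375 in DMSO and 14645 ± 2163 in dabrafenib (SD, n = 3 each). In A375-BIR it stood at 15065 ± 2407 CPM in DMSO and 12386 ± 616 in dabrafenib, and it was not called in any comparison.
Between the lines, the same group did not move as one. MIR221 was higher in A375-BIR, with 1.14 in DMSO and 0.92 in dabrafenib, and so was MIR222, while MIR155 was lower, with -4.34 in DMSO and -2.75 in dabrafenib. That is 2 of 4 higher and 1 of 4 lower in each treatment, against 30.3% and 16.0% of all 175 in DMSO and 22.3% and 24% in dabrafenib. With reference miRNAs MIR221 was not called in DMSO (0.84, FDR = 0.0886) or in dabrafenib (0.81, FDR = 0.104).

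The third group held 7 miRNAs of the pigment cell lineage or linked to its transcription factor MITF, of which 5 were tested. MIR211 and MIR137 had at most 9 and 1 counts in any library. Between the lines in DMSO, 2 of the 5 were higher in A375-BIR (MIR182 and MIR148B) and 2 lower (MIR204 and MIR148A), against 30.3% and 16.0% of all 175. In dabrafenib 1 was higher (MIR182), and MIR204 and MIR148A were lower, against 22.3% and 24%.
MIR204, which lies in the channel gene TRPM3 and is homologous to MIR211, had log2 fold changes of -3.66 in DMSO and -4.34 in dabrafenib for A375-BIR over A375, the reverse of MIR31. In A375 it rose in dabrafenib by 1.84 (edgeR's quasi-likelihood test, FDR = 2.89e-04), the 1 of 5 called there, against 18.3% higher and 6.86% lower of all 175. In A375-BIR it had 1.16 (FDR = 0.0632), and the difference in its response was -0.69 (FDR = 0.56), so a rise particular to A375 is not shown. Of the 5, 0 were called in A375-BIR in dabrafenib, against 13.1% higher and 7.43% lower of all 175, so that 0 of 5 says little. MIR148A, which targets MITF, had -2.11 and -2.10 between the lines. MIR152, of the same seed family, stood at 246 ± 51.1 CPM (SD, n = 3) in A375 in DMSO and 307 ± 52 in A375-BIR, and it was not called in any comparison.

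The fourth group held 12 miRNAs linked to metastasis or to the epithelial state, as MIR31 is in breast cancer. Only MIR10B and MIR34A could be tested. MIR10B, known as a promoter of metastasis, rose in dabrafenib in both lines, by 1.5 in A375 (FDR = 2.87e-05) and by 0.89 in A375-BIR (FDR = 0.00387) in edgeR's quasi-likelihood test. It thus moved against MIR31 in A375-BIR, although without a filter on low counts its call there was lost (0.65, FDR = 0.0674). With total counts its value in A375 was 0.99 and was still called. MIR34A, a target of p53, was higher in A375-BIR by 1.61 in DMSO and 1.63 in dabrafenib, and was not called in either drug comparison. MIR10B was lower in A375-BIR in dabrafenib (-0.55, FDR = 0.026), but 10 of 21 alternatives ended that call, and with total counts it was -0.06. Between the lines that is 1 of 2 higher and 0 of 2 lower in DMSO, and 1 of 2 each way in dabrafenib, against the shares of all 175 given above. The 5 members of the miR-200 family, MIR200A, MIR200B, MIR200C, MIR141 and MIR429, had at most 4 counts in any library, and MIR205 at most 9. For a difference in response between the lines, 0 tested members of these miRNA groups (linked to ERK, AP-1 or CREB, to pigment cells, or to metastasis) were called, against 2.86% lower and 0.571% higher of all 175.

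The label of the cells was set against miRNA markers. Of 10 markers of melanoma and pigment cells 7 had a count, with MIR204 the most abundant and MIR514A1, MIR514A2 and MIR514A3 at 0. In replicates 1, 2 and 3 they summed to 3101, 2961 and 2912 CPM in A375 in DMSO and to 7901, 10749 and 6646 in dabrafenib. In A375-BIR they summed to 208, 188 and 187 CPM in DMSO and to 519, 331 and 708 in dabrafenib, on 19 to 35 counts per library. The sums were thus low in the line where MIR31 was high, and in each line they were higher in the drug, where the MIR31 values lay lower. They include the MIR509 copies, which share reads and were picked above as least like MIR31, so this opposition is partly built in. MIR211, of the same markers, did not differ so between the lines in DMSO. It summed to 7 counts over the A375 libraries in DMSO and 18 in dabrafenib, and to 8 and 11 in A375-BIR. Their part in these differences was not tested.
The 7 epithelial and keratinocyte markers summed to between 1 and 13 counts per library, with MIR429 and MIR203A at 0 throughout. On these few counts they summed to 47.9, 91.1 and 52.6 CPM in A375 in DMSO and to 183, 226 and 166 in dabrafenib. In A375-BIR the sums were 72.5, 70.6 and 83 CPM in DMSO and 81.9, 15 and 263 in dabrafenib. Muscle and endothelial markers stayed at or under 9 counts per library. Of 5 fibroblast and smooth muscle markers 4 had a count, with MIR143 the most abundant and MIR214 at 0. They summed to 431, 547 and 894 CPM in A375 in DMSO and to 1382, 1636 and 1063 in dabrafenib. In A375-BIR they summed to 326, 306 and 270 CPM in DMSO and to 601, 857 and 1315 in dabrafenib. The 5 blood markers, of which MIR451A was at 0, summed to 27.2, 31.4 and 27.7 CPM in A375-BIR in DMSO and to 191, 256 and 202 in dabrafenib, on at most 17.5 counts per library. In A375 they summed to 59.9, 98.7 and 52.6 CPM in DMSO and to 26.1, 282 and 233 in dabrafenib. The part of these markers in the drug response of MIR31 was not tested.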

How the data were processed

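The authors trimmed the reads of the 12 small RNA libraries, removed contaminants such as rRNA, assigned the rest to genes and deposited expected counts per miRNA precursor, which need not be whole. Their processing notes name RSEM 1.2.25, R 4.0.2 and hg38. Here these counts were rounded to whole numbers, with no library left out, filtered with filterByExpr (175 rows kept, called precursors here although GENCODE v44 names 1 of them, SNORD138, as a snoRNA and gives some no name), scaled by TMM and fitted in edgeR 4.0.16 (R 4.3.3) with 1 mean per line and treatment. edgeR's quasi-likelihood test was adjusted by Benjamini-Hochberg over the 175, with an FDR threshold of 0.05. SEs come from the fold change and its F statistic, or from p where counting error set it. Log2 CPM used a prior count of 2. Tables and figures were made in Python 3.11.15 with scipy 1.17.1 and matplotlib 3.10.9.
MIR31 and the miRNA lists were chosen with earlier results of these data known. Named besides MIR31 were the 5 precursors most and 3 least like it, members of the lists, its neighbours in the order of line differences, the precursors called for a difference in response, the rRNA-like rows and marker miRNAs.
In 12 pairs of replicates, chi-square per degree of freedom ran from 2.5 to 32.1, so none was counted as a duplicate. Same-numbered DMSO libraries of the lines deviated weakly together from their group means (r = 0.11, 0.22 and 0.30). For same-numbered libraries of the other pairs of groups r lay between -0.54 and 0.19, so a pairing is not settled by the data. Whether a number stands for a batch is not given in the labels. Alternatives were other filters and scalings, DESeq2 1.42.0, only the libraries compared, a replicate block and each library left out. Of the 7 reference miRNAs used for 1 scaling, 3 were tested (MIR191, MIR16-1 and MIR16-2). MIR16-1 (1.34) and MIR16-2 (1.39) were called higher in A375-BIR in DMSO, and 0 of the 3 were called in the other comparisons. The fit was tested on simulated counts.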

Additional observations from a re-analysis of the deposited data

How the results depend on the processing

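The line difference of MIR31 stayed between 4.54 and 4.93 in DMSO and between 4.11 and 4.73 in dabrafenib. As reported it was 4.85 (SE 0.20) in DMSO and 4.25 (SE 0.23) in dabrafenib. In DMSO it moved most with reference miRNAs as the scale (4.54), DESeq2's size factors (4.69) and DESeq2's Wald test (4.69). The moves to 4.69 were within 1 SE. In dabrafenib it moved most with total counts (4.73, or 4.71 without the rRNA-like rows) and without A375 dabrafenib replicate 1 (4.52). With each library left out it lay between 4.78 and 4.90 in DMSO and between 4.11 and 4.52 in dabrafenib. The fall of MIR31 in A375-BIR kept its call throughout (-1.48 to -1.26 with a library left out). The response in A375 passed without a filter (-1.13), with a filter on CPM (-1.15), DESeq2's size factors (-0.94), total counts (-1.24), total counts without the rRNA-like rows (-1.21) and only the libraries compared (-0.94). It did not pass with any library left out (-0.95 to -0.61). The difference in response lay between -0.74 and -0.32 with a library left out. The scalings also differ in the median of the tested precursors, as given above, and the cause of these changes was not tested.
With the replicate number as a replicate block, MIR31 had 4.86 between the lines in DMSO, 4.24 in dabrafenib, -0.73 in A375, -1.35 in A375-BIR and -0.61 as the difference, and no call on it changed. The block kept the totals of called precursors within 1.5 times (78 between the lines in either treatment, 34 in A375, 26 in A375-BIR and 6 for the difference), but the lower calls in A375-BIR went from 13 to 6. In the drug comparisons same-numbered libraries did not deviate together.
Of 175 precursors, 44 were called for dabrafenib in A375, 26 with reference miRNAs, and 30 to 47 with a library left out. In A375-BIR 36 were called, 22 with reference miRNAs, 19 with only the libraries compared and 20 to 46 with a library left out, lowest without A375-BIR DMSO replicate 1 (20) or 2 (22). The 13 lower calls became 1 with reference miRNAs, 1 with only the libraries compared and 2 without A375-BIR DMSO replicate 1. The difference in response was called for 6, for 1 (MIR146A) with total counts with or without the rRNA-like rows, for 0 in edgeR with reference miRNAs (13 at an unadjusted p under 0.05), and for 3 to 6 with a library left out. Scaling turned the balance of calls: with total counts 18 rose and 44 fell in A375, against 32 and 12, and with DESeq2's size factors 23 and 23. Between the lines in dabrafenib 39 higher and 42 lower became 58 and 24 with total counts, and in DMSO 53 and 28 became 26 and 33 with reference miRNAs.
Of the other named miRNAs, 32 log2 fold changes were refitted 671 times: 621 kept their side of the threshold, 46 lost their call, 4 gained one and 0 changed direction. The 5 most alike included 3 of the same precursors with total counts and 4 with a prior count of 0.5. MIR31 had 5 to 10 counts per library in drug-treated A375.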
